A study of Mus musculus with 8 samples.

Results

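The 41 genes described here belong to the actin cytoskeleton and to the transcription programmes of YAP and of the serum response factor. They were taken as a list of symbols, with no measured value in the rule, and were looked up in the gene-level count table of 35852 genes. The list was chosen with earlier results of these data known. Shares of the members set against all genes therefore describe this list and test nothing. Cells of bEnd3, a line of mouse brain endothelial cells, received 5 µM corticosterone for 24 h (4 libraries) or culture medium (4 libraries), and poly(A) RNA was sequenced. No genotype differs between the groups, the line stands alone as the model, and the labels name neither a vehicle nor separate cultures, so p-values measure the spread between these libraries. The treatment protocol entered for the medium samples also names corticosterone; the groups follow the titles and the treatment field.

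The symbols matched 42 gene entries, because Myl12b carries 2 identifiers, and 41 of these entries have a row in the gene table. Tpm4 has values in the transcript tables alone. A filter on low counts left 36 entries for the test. The 5 others, Tead3, Actg2, Cnn1, Tpm2 and Myl9, had at most 0.603 CPM (counts per 1e+06, scaled by TMM) in any library.

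YAP and its paralogue TAZ are coactivators that enter the nucleus when cells are spread, stiffly attached or under tension, and they act on promoters through the TEAD transcription factors. LATS kinases and angiomotins hold them in the cytoplasm. The serum response factor, SRF, binds the CArG box and is switched on through the MRTF coactivators when monomeric actin is used up in filaments, so both programmes read the state of the actin cytoskeleton. In brain endothelium that cytoskeleton anchors the junctions of the barrier, and myosin II pulls on it.

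The 6 capitals in each of the following stretches spell the TEAD motif, GGAATG on one strand or CATTCC on the other. They are shown for the members called lower by 1.5 times or more that have a window in the table (Ccn2 has none), and for Axl and Tpm1. Each is 30 bases of the RefSeq promoter on GRCm38.p6, written 5′ to 3′ on the strand of the gene, and positions of the first motif base are counted back from the RefSeq start. The annotated Ankrd1 and Acta2 genes begin at 36120099 and 34255590, 5′ of their printed motifs. The main transcript of Ankrd1 (66.7% of its counts in medium) begins at about 36120100. That of Acta2 (95.7%) begins at about 34255600. The printed motifs of these genes thus lie inside the annotated gene.
Ccn1 (chr3:145650071-145650100, minus strand, -103): cgcgccaaccaaCATTCCtgagatgtttga
Ankrd1 (chr19:36120037-36120066, minus strand, -210): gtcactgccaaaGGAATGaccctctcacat
Ankrd1 (chr19:36119950-36119979, minus strand, -123): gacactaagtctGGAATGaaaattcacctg
Axl (chr7:25788949-25788978, minus strand, -233): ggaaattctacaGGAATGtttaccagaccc
Ajuba (chr14:54577830-54577859, minus strand, -186): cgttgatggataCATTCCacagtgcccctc
Ajuba (chr14:54577808-54577837, minus strand, -164): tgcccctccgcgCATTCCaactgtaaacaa
Amotl2 (chr9:102717727-102717756, plus strand, -65): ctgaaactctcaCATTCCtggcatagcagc
Acta2 (chr19:34255502-34255531, minus strand, -146): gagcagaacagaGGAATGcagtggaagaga
Tpm1 (chr9:67049252-67049281, minus strand, -56): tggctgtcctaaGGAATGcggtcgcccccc

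The CArG box is CC, 6 bases of A or T, and GG. It is in capitals below in the 5 members whose promoter window held it, SRF itself among them with a pair of boxes. For Myl6 the box is in the window of an inner RefSeq start alone (128492960 to 128493259). The annotated Myl6 gene begins at 128494145. Its transcripts Myl6-206 (55.5% of Myl6 counts in medium) and Myl6-201 (34.3%) begin 5′ of the box.
Srf (chr17:46556225-46556254, minus strand, -82): ctggggctcgCCATATAAGGagcggcctcg
Srf (chr17:46556205-46556234, minus strand, -62): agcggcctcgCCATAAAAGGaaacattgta
Actg1 (chr11:120348566-120348595, minus strand, -90): ggaaagatcgCCATATATGGacatgttctg
Cnn2 (chr10:79988534-79988563, plus strand, -56): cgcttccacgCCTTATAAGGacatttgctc
Myl6 (chr10:128493040-128493069, minus strand, -50): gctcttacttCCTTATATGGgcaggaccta
Myl9 (chr2:156775293-156775322, plus strand, -161): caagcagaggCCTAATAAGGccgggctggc

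Of the 36 entries tested, 23 (63.9%) passed at a Benjamini-Hochberg adjusted p under 0.05 in edgeR's quasi-likelihood test, 18 lower and 5 higher with corticosterone. Over all 13272 genes tested, 40.1% passed, 20.6% lower and 19.5% higher. The median log2 fold change of the 36 entries was -0.12 against -0.0046 over all genes, and the median size without sign was 0.17 against 0.14. In 21 entries (58.3%) no library of one group lay within the range of the other, against 39.9% of all genes. A change of 1.5 times or more, in either direction, was called in 6 entries (16.7%), against 7.87% of all genes, and in all 6 of these, Ccn1, Ccn2, Ankrd1, Ajuba, Amotl2 and Acta2, the level was lower. In corticosterone replicates 1 and 2 the transcript lengths used for quantification were of another kind than elsewhere; without both, 19 entries were lower and 4 higher, where 36.4% of all genes were called.

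**Figure D1:**
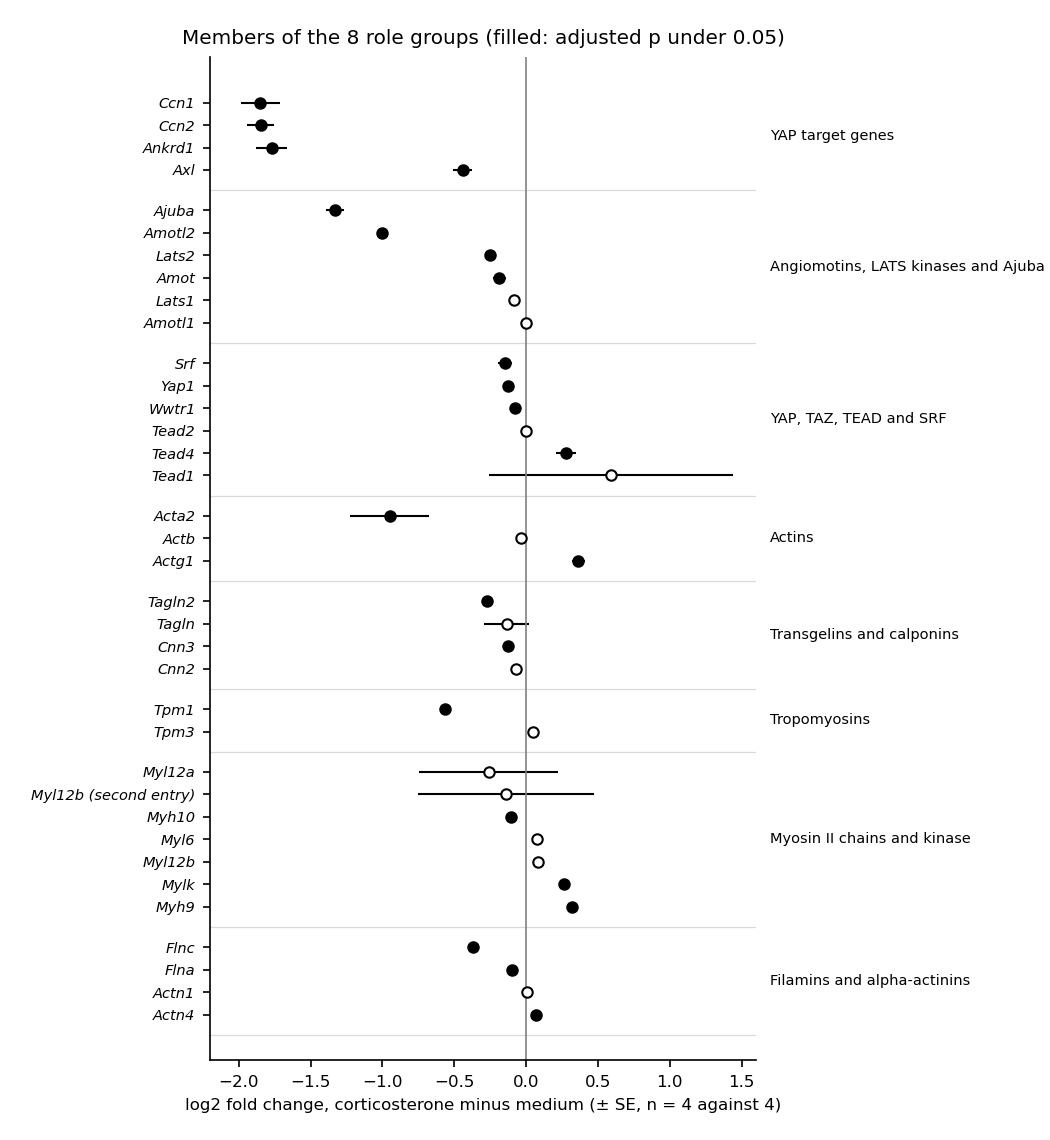
Log2 fold change of each of the 36 tested entries (x axis, corticosterone minus medium; points are estimates of the quasi-likelihood fit, bars their SE), grouped by role; filled points passed at an adjusted p under 0.05. The secreted and nuclear YAP targets, Ajuba and Amotl2 lie furthest to the left, and Actg1, Myh9, Mylk and Tead4 are the filled points furthest to the right.

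The YAP target genes Ccn1, Ccn2, Ankrd1 and Axl all fell. Ccn1 (ENSMUSG00000028195.4, chromosome 3, 145646976 to 145649981), a secreted matricellular protein, had 141, 118, 128 and 157 CPM in medium replicates 1 to 4 and 36.7, 32.5, 45.6 and 36.2 CPM with corticosterone. The highest treated library lay far below the lowest medium library, and the level was 0.277 of medium, or -1.85 ± 0.14 on the log2 scale (± SE; adjusted p = 5.9e-05). Ccn2, its relative with a role in matrix production, had 61.5, 56.4, 59.6 and 67.3 CPM in medium and 15.7, 15.4, 20.2 and 16.7 CPM with corticosterone. Again the groups stood wide apart, at 0.278 of medium (adjusted p = 8.23e-07).

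Ankrd1, an ankyrin repeat protein of the nucleus and sarcomere, had 12.4, 11.1, 11.4 and 14.5 CPM in medium and 3.61, 3.398, 4.22 and 3.22 CPM with corticosterone, at 0.293 of medium (adjusted p = 5.54e-08). Axl, a receptor tyrosine kinase, fell less: 12.2, 11.4, 12.4 and 11.98 CPM in medium against 8.80, 8.61, 9.74 and 8.16 CPM, at 0.737 of medium (adjusted p = 0.000163). In all 4 genes the groups did not overlap. Corticosterone replicate 3 was the highest treated library in each of them. The calls held in the 17 alternatives computed, in which the log2 fold change of Ccn1 lay between -1.95 and -1.73.

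**Figure D2:**
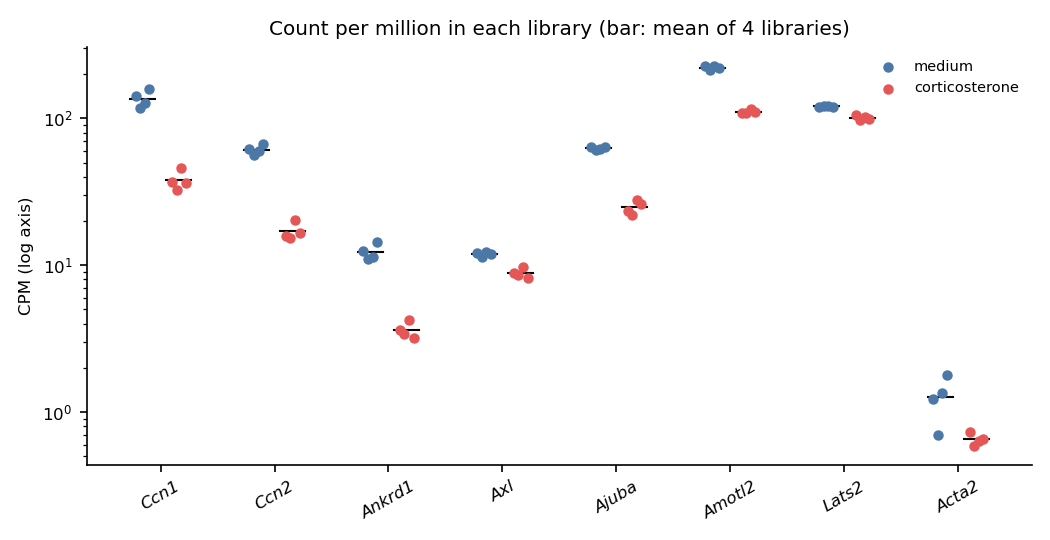
CPM of 8 members in each library (y axis, log scale; points are libraries, 4 of medium and 4 of corticosterone, bars are means). The groups stand apart in every gene shown except Acta2, where medium replicate 2, at 0.699 CPM, lies within the range of the treated libraries.

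Among the proteins that restrain YAP or act at its junctional platform, the falls were uneven. Ajuba, a LIM protein that binds LATS kinases at junctions under tension, had 63.6, 60.6, 62.2 and 63.4 CPM in medium and 23.4, 22.1, 27.8 and 26.1 CPM with corticosterone, at 0.398 of medium (log2 fold change -1.33 ± 0.06, adjusted p = 3.1e-08). The treated libraries were all below 28 CPM and the medium libraries all above 60 CPM. The 3 angiomotins, scaffolds that bind YAP, differed. Amotl2 had 226, 213, 228 and 221 CPM in medium and 109, 108, 116 and 110 CPM with corticosterone (adjusted p = 6.36e-11). Amot fell to 0.879 (adjusted p = 0.00633). Amotl1 had 321 ± 5.04 CPM in medium and 320 ± 4.97 CPM with corticosterone (SD, n = 4; adjusted p = 0.944, edgeR).

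Per unit of length, Amotl2 made up 55.1 ± 0.91% of the summed angiomotin transcripts in medium and 41.3 ± 3.52% with corticosterone, and Amotl1 41.2 ± 1.03% and 54.2 ± 3.09% (SD, n = 4). The order of these paralogues was thus turned between the groups. Of the LATS kinases, which phosphorylate YAP, Lats2 fell to 0.839 of medium (120, 122, 121 and 120 CPM against 106, 97.7, 103 and 98.8 CPM; adjusted p = 1.45e-05). Only 58.2% of the 31-base words of Lats2 are found in no other gene, and with the gene it shares them with added in, the fall was to 0.851. Lats1 had 30.02 ± 1.14 CPM and 28.4 ± 0.41 CPM and did not pass (adjusted p = 0.126, edgeR).

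The transcription factors and coactivators moved little. Yap1 fell to 0.914 of medium, with 196, 203, 197 and 200.2 CPM in medium and 182, 188, 179 and 180.0 CPM with corticosterone (adjusted p = 0.000874). Wwtr1, which encodes TAZ, stood at 0.947 of medium (adjusted p = 0.0201), with 223, 228, 232 and 223 CPM against 217, 218, 215 and 208 CPM. The groups did not overlap in either gene, but the call of Wwtr1 ended without corticosterone replicate 4 (adjusted p = 0.0816), without medium replicate 2 (0.0529) and without the filter on low counts (0.0576).

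Tead4 rose 1.21-fold, with 23.1, 25.7, 28.1 and 23.5 CPM in medium and 30.3, 27.7, 33.3 and 30.2 CPM with corticosterone (adjusted p = 0.00795). Medium replicate 3 lay above corticosterone replicate 2. Tead2 had 52.3 ± 1.68 CPM and 52.3 ± 1.94 CPM (adjusted p = 0.994, edgeR), and per length it was the most abundant TEAD gene, at 70.2 ± 0.95% of their summed transcripts in medium. The row of Tead1 in the gene table is not equal to the sum of its transcripts, and it ranged from 5.91 to 56.7 CPM among the treated libraries. Summed from the transcript tables, Tead1 had 56.1, 41.1, 33.4 and 44.5 CPM in medium and 58.2, 26.6, 40.95 and 34.9 CPM with corticosterone. The groups overlapped widely and no change was called (adjusted p = 0.763).

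Srf stood at 0.902 of medium (adjusted p = 0.0322), with 55.2, 56.7, 56.4 and 55.0 CPM in medium and 45.7, 48.3, 52.4 and 54.8 CPM with corticosterone. The difference lay mainly in corticosterone replicates 1 and 2. Without both, the log2 fold change went from -0.15 to -0.053 (adjusted p = 0.307). Leaving out corticosterone replicate 1 or 2 or any medium library also ended the call, at adjusted p of 0.0598 to 0.0849.

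The actins went in different directions. Actg1, the cytoplasmic gamma actin, rose 1.29-fold, with 2759, 2811, 2691 and 2929.7 CPM in medium and 3817, 3284, 3665 and 3626 CPM with corticosterone (adjusted p = 0.000194). Only 61.0% of its 31-base words are its own. Summed with the 12 other genes that share them, the rise was 1.33-fold (adjusted p = 6.25e-11), and the spread of the treated libraries shrank from 225 to 86.1 CPM (SD, n = 4). Actb, the beta actin and in medium the most abundant member per length, had 2319 ± 32.0 CPM in medium and 2264 ± 9.45 CPM with corticosterone (SD, n = 4; adjusted p = 0.151, edgeR). All treated libraries of Actb lay below all medium libraries, by little, and summed with the genes that share its sequence the log2 fold change was 0.0096.

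Acta2, the smooth muscle alpha actin, had 1.23, 0.699, 1.36 and 1.78 CPM in medium and 0.728, 0.591, 0.637 and 0.650 CPM with corticosterone, at 0.518 of medium (adjusted p = 0.0146). Each library held few counts, 27 in medium replicate 3 for example, and medium replicate 2 was as low as the treated libraries. The call ended without medium replicate 4 (adjusted p = 0.0634) and with a term for corticosterone replicates 1 and 2 (0.0503). Actg2, the enteric smooth muscle actin, was under the filter.

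**Figure D3:**
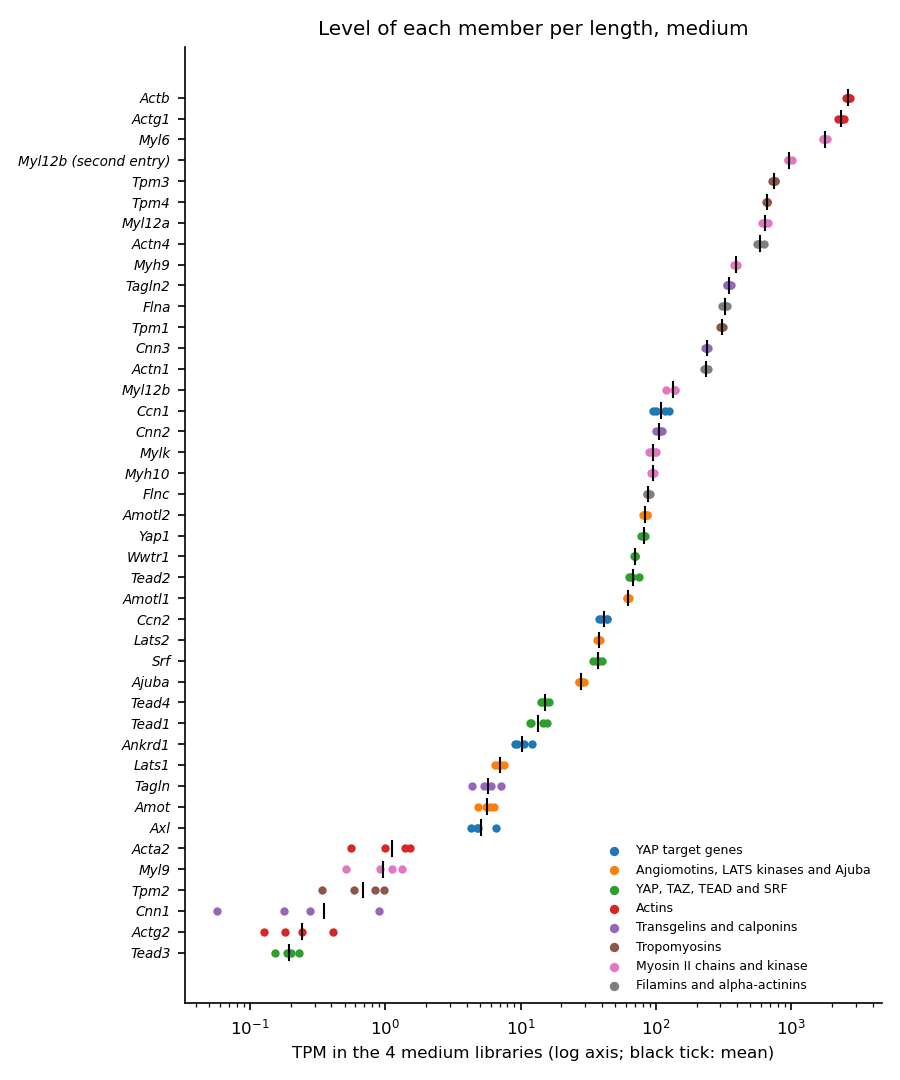
TPM (transcripts per 1e+06, x axis, log scale) of each member in the 4 medium libraries, computed with 1 effective length per transcript; points are libraries coloured by role, black ticks are means. Actb, Actg1 and Myl6 stand at the top, and the smooth muscle genes Acta2, Myl9, Tpm2, Cnn1 and Actg2 near the bottom with the widest scatter.

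Per length, the members of the contractile set in medium were led by the nonmuscle forms. Actb stood at 2640.0 ± 84.0 TPM and Actg1 at 2356 ± 96.6 TPM (SD, n = 4). Actb and Actg1 took 52.8 ± 1.21% and 47.1 ± 1.21% of the summed actin transcripts in medium, and 48.3 ± 5.64% and 51.7 ± 5.64% with corticosterone (SD, n = 4). Actg1 stood below Actb in every medium library and in corticosterone replicate 2, and above it in the other treated libraries. Acta2, Myl9, Tpm2, Cnn1 and Actg2, which are used as smooth muscle markers, lay between 0.240 and 1.12 TPM. Tagln, also used as one, stood higher in medium, at 5.74 ± 1.17 TPM. With corticosterone TPM spread more widely. Actb had 2289.8, 3899, 2501 and 2498 TPM in corticosterone replicates 1 to 4, the first pair having the other kind of effective length, so levels per length are given for medium, and shares within a family for both groups.

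Transgelins and calponins bind along actin filaments. Tagln2, the abundant form, fell to 0.828 of medium, with 263, 275, 275 and 270 CPM in medium and 224, 228, 229 and 216 CPM with corticosterone (adjusted p = 3.96e-06). Cnn3 fell to 0.917 (adjusted p = 0.000446), from 297 ± 2.60 to 272 ± 3.53 CPM. In both genes the groups did not overlap. Cnn2 had 148 ± 5.60 and 141 ± 3.37 CPM (adjusted p = 0.0846, edgeR). Tagln had 3.04 ± 0.38 and 2.77 ± 0.55 CPM (adjusted p = 0.54, edgeR), and Cnn1 was under the filter.

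Tropomyosins coil along the filament and set which myosins and severing proteins reach it. Tpm1 fell and Tpm3 did not pass. Tpm1 (ENSMUSG00000032366.15, chromosome 9, 67022590 to 67049406, minus strand) had 292, 301, 296 and 309.8 CPM in medium and 197, 207, 201 and 204 CPM with corticosterone, at 0.675 of medium (adjusted p = 3.98e-09). The groups stood far apart. Tpm3 had 964 ± 16.4 and 998 ± 13.2 CPM (adjusted p = 0.0768, edgeR). Tpm4, from the transcript tables, had 854, 886, 901 and 902 CPM in medium and 97.4, 877, 929 and 954 CPM with corticosterone. Corticosterone replicate 1 was far below all other libraries, and the rest overlapped with medium (adjusted p = 0.752).

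The fall of Tpm1 lay mainly at one of its starts. The annotated transcripts begin at 2 main places that lie 5156 bases apart: 13 begin at the upstream start (67049118 to 67049406) and 7 at an internal start (67043709 to 67043962). Protein-coding transcripts of the upstream start encode 281 to 326 amino acids, most often 284, the length class called high-molecular-weight tropomyosin. Those of the internal start encode 245 to 251, most often 248, the low-molecular-weight class. This sum by start was chosen after the data were seen.

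Counts from the upstream start were 122, 126, 117 and 133 CPM in medium and 32.0, 40.6, 32.7 and 35.8 CPM with corticosterone. No treated library reached 41 CPM, and the level was 0.283 of medium (log2 fold change -1.82 ± 0.08, adjusted p = 8.81e-06). Counts from the internal start were 167, 174, 178 and 174 CPM in medium and 163, 166, 166 and 165 CPM with corticosterone. Every treated library lay below every medium library by little, at 0.952 of medium, and the difference did not pass (adjusted p = 0.0799); it passed with scaling by library size alone (0.0134) and without medium replicate 1 (0.0227). The upstream start thus supplied 41.5 ± 1.49% of Tpm1 counts in medium and 17.5 ± 1.52% with corticosterone (SD, n = 4).

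**Figure D4:**
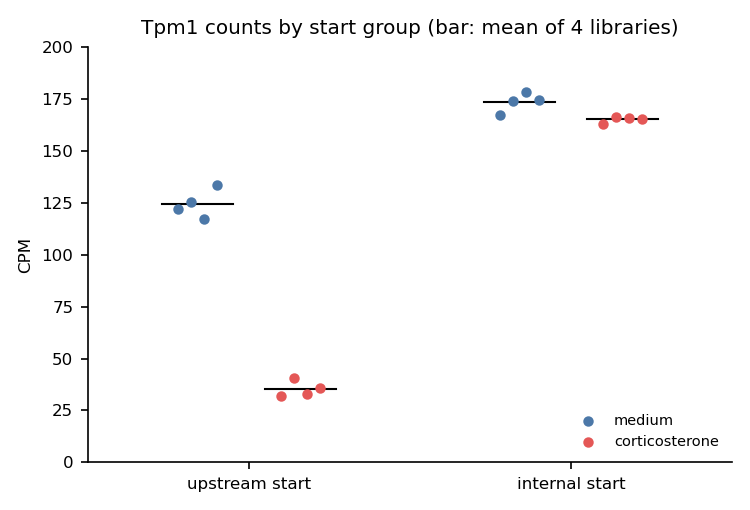
Summed CPM of the Tpm1 transcripts that begin at the upstream and at the internal start (y axis from 0; points are the 4 medium and 4 corticosterone libraries, bars are means). The upstream start drops from 117 to 133 CPM in medium to 32.0 to 40.6 CPM with corticosterone, while the internal start stays between 163 and 178 CPM in all 8 libraries.

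Tested against the gene as a whole with edgeR's diffSpliceDGE, the upstream start stood at -0.87 on the natural log scale (adjusted p = 0.00283). This scale differs from the log2 scale used for the fold changes above. It was the single one called of 67 start groups in 22 member genes, where 0.258% of the 14741 start groups of all genes were called. The call ended without medium replicate 2 (adjusted p = 0.0583) or 4 (0.063). In the 6 libraries without corticosterone replicates 1 and 2 the upstream start was called (adjusted p = 1.59e-09), where 0.543% of start groups were called. The internal start was then called higher than the gene (0.35 on the natural log scale, adjusted p = 1.54e-05). The TEAD motif printed above for Tpm1 lies before the RefSeq start but among the annotated upstream starts: Tpm1-216, the most abundant of their transcripts, begins 5′ of it. RefSeq's promoter table holds no window for the internal one.

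Single transcripts gave less stable results than start groups. Of 157 member transcripts tested for usage, 2 were called, Actg1-206 and Flna-207, where 0.239% of 35122 transcripts were called. Actg1-206 held 30.9% of the gene's counts in corticosterone replicate 2 and at most 0.209% in any other library. Flna-207 held 31.6% in corticosterone replicate 2 and 6.46% in replicate 1, and at most 0.0793% in the others. Without these replicates neither was called (both adjusted p = 1.00), and 6 others were, where 0.379% of all transcripts were called. Of those 6, Tpm1-216 (19.7 ± 0.71% of Tpm1 counts in medium) was lower against its gene and Tpm1-212 (12.4 ± 1.62%) higher.

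Nonmuscle myosin II is built of heavy chains (Myh9, Myh10), regulatory light chains (Myl12a, Myl12b, Myl9) and the essential light chain Myl6. Myh9 rose 1.25-fold, with 2021, 2039.8, 2030.2 and 2067 CPM in medium and 2592, 2560.2, 2468 and 2552 CPM with corticosterone (adjusted p = 8.14e-08). The groups stood far apart. Myh10 moved the other way, to 0.928 of medium, from 514 ± 8.98 to 476 ± 15.6 CPM (SD, n = 4; adjusted p = 0.00635, edgeR). Per length, Myh9 made up 80.5 ± 0.27% of the pair in medium and 84.7 ± 0.31% with corticosterone. Mylk, the kinase that phosphorylates the regulatory light chain, rose 1.2-fold, with 159, 160.2, 147 and 161 CPM in medium against 186, 190, 190.0 and 188 CPM (adjusted p = 1.46e-05). Myl6 had 461 ± 15.9 and 486 ± 14.3 CPM (adjusted p = 0.0559, edgeR). It was called higher in 6 of 17 alternatives. Among these was the sum with genes that share its sequence (log2 fold change 0.079, adjusted p = 0.0276, edgeR), where 49% of all families and genes tested were called.

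The regulatory light chains share sequence. The second Myl12b entry (ENSMUSG00000117098.1, chromosome 17, 70974119 to 71002208) spans Myl12a as well, and 2.84% of its 31-base words are its own. Its counts and those of Myl12a moved against each other in corticosterone replicates 1 and 2: Myl12a had 413 and 70.6 CPM there, and the second entry 37.4 and 375 CPM. In the other 6 libraries Myl12a lay between 228 and 303 CPM. Summed with their family, the Myl12 genes had 595 ± 20.2 CPM in medium and 533 ± 11.7 CPM with corticosterone (SD, n = 4), a fall to 0.895 of medium (adjusted p = 5.99e-05, edgeR). For this sum 49% of all families and genes tested were called.

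**Figure D5:**
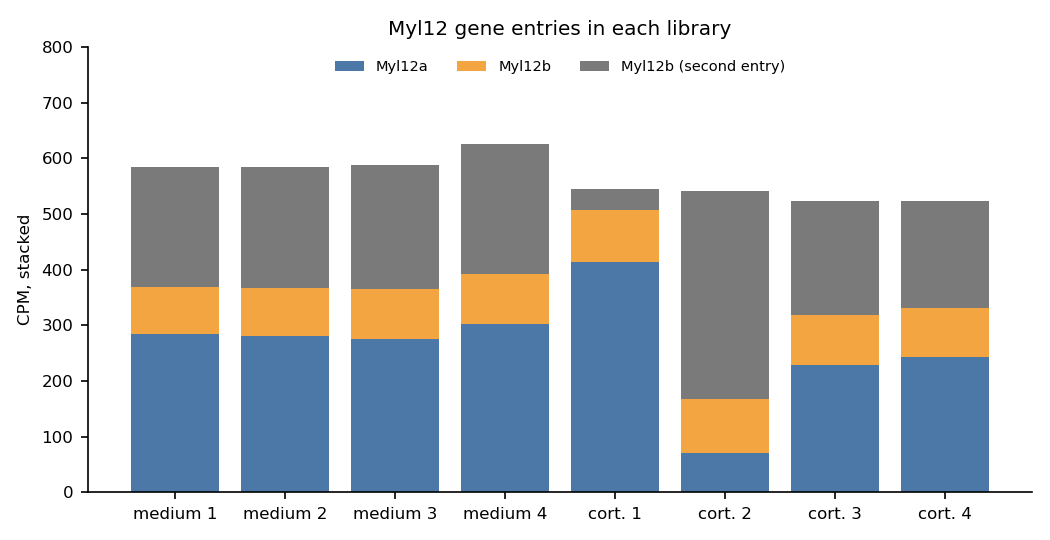
CPM of Myl12a and of both Myl12b entries stacked in each library (y axis from 0, 4 medium and 4 corticosterone libraries). The split among the entries is alike in 6 libraries and differs in corticosterone replicates 1 and 2, while every treated total lies below every medium total.

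Filamins and alpha-actinins join filaments into networks and anchor them. Flnc fell to 0.773 of medium, with 518, 522, 513 and 520.5 CPM in medium and 410, 406, 396 and 391 CPM with corticosterone (adjusted p = 5.32e-08). Flna fell to 0.936 (adjusted p = 0.00626), with 1569, 1567, 1495 and 1574 CPM against 1494, 1451, 1436 and 1424 CPM. The Flna groups nearly touch, at medium replicate 3 and corticosterone replicate 1. Actn4 stood at 1.05 times medium (1333, 1411, 1357 and 1387 CPM against 1456, 1483, 1423 and 1402 CPM; adjusted p = 0.0395), a call that ended in 9 of 17 alternatives, among them the 6 libraries (0.284). Actn1 had 524 ± 13.7 and 527 ± 16.6 CPM (adjusted p = 0.828, edgeR).

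RefSeq promoter windows of 300 bases (250 before the start and 50 after it) were at hand for 35 of the 41 members. Actb, Actg2, Ccn2, Tagln, Tead1 and Tead4 had none and were not searched for any motif. The TEAD motif, read on both strands, was in the window of 18 members (51.4%) and of 16.6% of all 27025 symbols with a window. Among members that were tested, 14 of the 17 with the motif fell, 2 rose (Actn4, Mylk) and 1 did not pass, while of the 13 without it 3 fell, 2 rose and 8 did not pass. Over all genes tested with a window, 23.8% of the 1408 with the motif and 21.7% of the 8405 without it were lower. The CArG box was in 5 members (14.3%) and in 1.81% of all symbols, and no window of a member held both motifs. Of the CArG-box members, Actg1 rose, Srf was lower, Cnn2 and Myl6 did not pass and Myl9 was not tested. The glucocorticoid response element, searched as GNACANNNTGTNC on both strands, was in no member's window and in 0.537% of all symbols. A match describes the letters in the window, and an absent match says nothing of sites elsewhere.

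Other genes of the same pathways, from 10 lists of 186 genes, moved in mixed directions. Their counts stand against 20.6% lower and 19.5% higher over all genes tested. Of 18 other YAP target genes tested, 10 fell and 4 rose (median log2 fold change -0.13). The secreted factors Thbs1, Tgfb2 and Edn1 stood at 0.258, 0.295 and 0.306 of medium, Crim1 at 0.654 and the upstream regulator Frmd6 at 0.673. Igfbp3, which binds insulin-like growth factors, rose 4.57-fold and the ectonucleotidase Nt5e 3.42-fold. The list thus held a fall, of Thbs1 (log2 fold change -1.95), slightly deeper than that of Ccn1 (-1.85). The rise of Igfbp3 (2.19) was larger in size than either. Of 21 other Hippo pathway genes, 5 fell and 5 rose, close to the shares over all genes. Vgll4, a TEAD cofactor that competes with YAP, rose 1.71-fold and the kinase Stk38l 1.37-fold.

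Of 12 SRF cofactors and immediate early SRF targets, 7 rose and 3 fell (median 0.22). Nr4a1 rose 3.03-fold, Fos 2.70-fold, Junb 1.56-fold, the SRF coactivator Mrtfb 1.32-fold and Mcl1 1.24-fold, while Egr3, with 14 to 48 counts per library, stood at 0.602, a call that ended in the 6 libraries (adjusted p = 0.0865). Of 15 other cytoskeletal targets of MRTF and SRF, 7 rose and 5 fell (median 0.024). Zyx, the focal adhesion protein zyxin, was at 0.465, Filip1l at 0.557 and Fhl1 at 0.287, and the membrane linker Svil rose 1.76-fold. Of 35 genes of actin turnover and nucleation, 18 rose and 3 fell (median 0.13). Limk1, the kinase that inactivates cofilin, rose 2.0-fold, and the Arp2/3 subunits Arpc1b and Arpc2 rose 1.43-fold and 1.23-fold.

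Of 17 other cross-linkers and anchors, 6 rose and 6 fell (median 0.0070). Lasp1 was at 0.778 and Eps8 at 0.584, and the bundling proteins Pls3 and Vil1 rose 1.25-fold and 1.59-fold.

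The cell type markers moved as well. All 10 endothelial markers were measured, at a summed 8068 to 8579 CPM in medium and 8884 to 9173 CPM with corticosterone. Of these, 6 were higher and 3 lower. Esam at 1.44, Cldn5 at 1.32 and Tek at 1.26 times medium had the smallest p, and the 3 lower ones are not named. No called endothelial marker changed by 1.5 times or more in either direction. The 10 pericyte and smooth muscle markers summed to 6.62 to 8.17 CPM in medium and 5.65 to 6.83 CPM with corticosterone; 4 were tested and 1, Pdgfrb, was lower at 0.578. Its groups overlapped, at 12 to 60 counts per library, and its call ended in the 6 libraries (adjusted p = 0.0539). Des was at 0 in every medium library and Kcnj8 at 0 in every treated one. The 8 fibroblast markers summed to 20.6 to 22.7 CPM and 6.54 to 7.06 CPM; 3 were tested and 2, Pdgfra at 0.265 and Col1a1 at 0.470, were lower, with Dcn, Lum and Col3a1 at a mean below 0.1 CPM in both groups. Whether cells of these types were in the cultures, and what part they had in the values of the members, was not tested. In a bulk sample fewer cells of a type and less RNA per cell cannot be told apart.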

How the data were processed

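Directional poly(A) RNA libraries were sequenced and quantified with bcl2fastq and kallisto 0.46.1, per the submitters' processing notes, which also name mm10 and GRCm38. The authors deposited a gene table of estimated counts and, per library, transcript tables with estimated counts and TPM (per 1e+06 transcripts). Neither the transcript index nor the gene summing step is given in the sources used here. Library totals were 19.7 to 46.2 in units of 1e+06 counts. In corticosterone replicates 1 and 2 the effective length of transcripts was their length plus 1, and in the other 6 libraries it was a median of 340 to 360 bases shorter, so deposited TPM differ in scale between them. Counts were therefore compared, and TPM were recomputed with 1 effective length per transcript. This touches 2 of the 4 treated libraries, and their results are given with and without both.

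Symbols and positions came from GENCODE M21 (GRCm38), counted from 1. Rounded counts entered edgeR 4.0.16 (R 4.3.3): filterByExpr, TMM, robust quasi-likelihood F test with the group as the single term, Benjamini-Hochberg over all genes, called under 0.05. CPM are per 1e+06 of the scaled library; SE is the log2 fold change over the square root of F. Genes sharing 10% or more of their 31-base words were summed as families in an alternative. Transcript and start-group usage used diffSpliceDGE, with starts within 500 bases joined. The methods were tested on simulated data.

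Alternatives were DESeq2 1.42.0, library-size scaling, no filter, a replicate block, each library left out, the 6 libraries, a term for corticosterone replicates 1 and 2, and families; sums of the transcript tables and start groups were added after seeing the data. The members and lists were chosen with earlier results of these data known. Named from the lists were the 3 called genes with the smallest p of each and any called gene changed 1.5 times or more. Both isoforms called with all libraries were named. Of those called in the 6 libraries, the isoforms named held 10% or more of their gene's counts in a group of those libraries. Protein sequences were not used here. One list and a gene that the rule takes are not reported here.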

Additional observations from a re-analysis of the deposited data

Results flagged for a closer look

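In 78 groups of 4 libraries examined for a library far from the other 3 (the tested members, Tpm4 and both Tpm1 starts), 3 had one; chance flags about 1 group in 20. Tpm4 stood at 97.4 CPM in corticosterone replicate 1, where the other treated libraries had 877 to 954 CPM. Myl6 stood at 465 CPM in corticosterone replicate 3, against 491 to 496 CPM in the other treated libraries. Without that library Myl6 passed (adjusted p = 0.0216). Flna stood at 1495 CPM in medium replicate 3, against 1567 to 1574 CPM in the other medium libraries, and its call held without that library. The causes were not tested.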

How the results depend on the processing

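Across 17 alternatives for the gene counts, 16 to 21 members were lower and 4 to 7 higher, and of the 23 called members 19 kept their call and direction in every one; Wwtr1, Srf, Acta2 and Actn4 did not, and no called member changed direction. The replicate block gave 18 lower and 4 higher members and 4913 called genes in all. Same-numbered libraries did not deviate together (correlations of -0.044, 0.028, -0.12 and -0.014). The labels do not say whether the numbers pair samples. These correlations cannot decide it, because a pairing with a weak shared effect could give such values too. Scaling by library size alone moved the median of all genes by about 0.03 to -0.035 on the log2 scale, and Lats1, Actb and Cnn2 then passed as lower. The TEAD motif was in 16 members and the CArG box in 5 when the 250 bases before the start were read alone.

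The number of member isoforms called was 2 with all libraries, where 0.239% of all transcripts were called. It was 10 with a mean of 10 counts per library in place of the filter (2.32% of all), 1 with the replicate block (0.0399%), 6 in the 6 libraries (0.379%) and 0 to 7 when 1 library was left out (0.167% to 0.77%). Tpm1's upstream start against its gene lay between -0.91 and -0.84 (natural log) when 1 library was left out. The call was lost without medium replicate 2 or 4. With the block the value was -0.87 on the same scale.

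Some members without a call changed sign. The log2 fold change of Amotl1 was 0.0028 with DESeq2 and 0.0042 without the filter, and -0.012 to 0.0093 with 1 library left out. Tead1 was at -0.21 in the 6 libraries, -0.15 with the term for corticosterone replicates 1 and 2, -0.13 and -0.14 from the transcript tables without and with families, and -0.44 to 1.18 with 1 library left out. Tead2 was at -0.030, -0.022, -0.026, -0.0015 and -0.0013 with library size, the 6 libraries, the term, families, and transcript tables with families, and -0.017 to 0.032 with 1 library left out. Actb with families was at 0.0096 and, from the transcript tables, 0.0097. Tagln was at 0.086 in the 6 libraries and 0.086 with the term. Myl12b was at -0.16 with families from either table. Actn1 was at -0.021 with library size and -0.0049 to 0.029 with 1 library left out. Myl12a lay between -0.66 and 0.043 and the second Myl12b entry between -0.62 and 0.21 with 1 library left out. The causes were not tested.

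Acta2 had 16 to 58 counts per library, fewer than any other called member.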
